A study of Mus musculus with 6 samples.

Results

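Mitochondrial ribosomal protein genes encode the proteins of the ribosome that works inside mitochondria. They were taken here as the gene symbols made of Mrpl or Mrps and a number, with pseudogenes left out, which gave 78 of the 55367 symbols listed in each of 6 RNA-seq libraries. The libraries came from kidney epithelial cells of male mice that bind the lectin DBA, a plant protein used to pick out collecting duct epithelium, collected at Day115. In WT mice *Pkd1*, the gene for polycystin 1 that is mutated in most autosomal dominant polycystic kidney disease, was intact. In ADPKD mice both copies were floxed and were deleted by a tamoxifen-induced Cre/Esr1 recombinase after injections at postnatal days 25 and 28. ADPKD+MMPP mice had the same knockout and received MMPP, a melanin-like nanoparticle that carries manganese and polyethylene glycol, intravenously every 4 days from day 55. The other groups received saline, and each group had 2 libraries. The promoter of the Cre, the mouse strain and whether animals were pooled are not given in the sources used here. The labels name DBA-positive cells in one sentence and RNA of whole kidney in another.

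Nearly all proteins of the respiratory chain are made in the cytosol, but a small set of core subunits is encoded by mitochondrial DNA and translated by the mitochondrial ribosome. Its rRNAs come from mitochondrial DNA, whereas all of its proteins are encoded in the nucleus, made in the cytosol and imported. The large subunit holds the peptidyl transferase centre, where peptide bonds form, and the tunnel through which the chain leaves. The small subunit holds the decoding site. Kidney tubules are rich in mitochondria, and loss of this ribosome impairs respiration.

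The members split into 51 genes of the large subunit and 26 of the small subunit. *Mrps18a* and *Mrps30* were counted with the large subunit, where their proteins lie. *Mrps36* carries the family's name, but its protein is a subunit of the 2-oxoglutarate dehydrogenase complex, so it was counted with neither. All 78 matched a gene of GENCODE vM21 on the GRCm38 build, and they lay on 17 chromosomes. In 77 of them 2 or more libraries reached an FPKM of 1, the level needed for a test. The remaining member, *Mrpl53*, was listed at 0 in all 6 libraries, and 88% of its exon bases overlap *Gm42688* on the same strand and 1.9% overlap *Ccdc142os* on the other. The products of the mitochondrial genome could not be set beside their ribosome, since all 37 symbols of mitochondrially encoded genes were listed at 0.

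The 3 groups differ in more than genotype and treatment. From the steps of single reads in the low values, depth was between 30.6 and 33.1 M reads in the WT and ADPKD libraries, and 11.8 and 10.9 M reads in the ADPKD+MMPP libraries. Odd read numbers made up 36.9% to 38.7% of the low values in WT and ADPKD, and 8.36% and 7.97% in ADPKD+MMPP. This difference in how the values arose lies between conditions, so it and the treatment cannot be told apart. *Pkd1* was at 17.7 and 17.2 FPKM in WT, 7.64 and 8.91 in ADPKD and 4.34 and 3.99 in ADPKD+MMPP, lower in ADPKD than in WT (log2 fold change -0.998, limma adjusted p = 0.00566). Fold changes below are on the scale of log2(FPKM + 1), where the added 1 shrinks the change of low genes. A member was called where the fold change was at least 1.5 with an unadjusted P under 0.05, the thresholds of the study, and adjusted p-values are Benjamini-Hochberg values of limma over 14862 tested genes. As RNA was pooled over cells, fewer cells of a type and less RNA per cell cannot be told apart.

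Genes of the mitochondrial ribosome are known to be driven by NRF1, GABPA and YY1, factors that tie nuclear genes to mitochondrial biogenesis, and the study concerns CREB, which binds the CRE. RefSeq promoter windows of GRCm38.p6, from 250 bases before to 50 bases after a start, were at hand for 69 members. Among them 3 members held the exact NRF1 motif and 2 held the full palindromic CRE, and their upstream bases are shown because they carry these motifs letter for letter. *Mrpl2* is shown as the member with the lowest change after MMPP. Each runs 5′ to 3′ up to the base before the start, with the NRF1 motif (first 3), the CRE TGACGTCA (next 2) or the *Myc* E-box CACGTG (last) in capitals.
Mrpl9, chr3:94443226-94443335, plus strand: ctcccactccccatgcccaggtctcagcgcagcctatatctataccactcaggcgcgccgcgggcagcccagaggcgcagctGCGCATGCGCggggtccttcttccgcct
Mrpl32, chr13:14613038-14613147, minus strand: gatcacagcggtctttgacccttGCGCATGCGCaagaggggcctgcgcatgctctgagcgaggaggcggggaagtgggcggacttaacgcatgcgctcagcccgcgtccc
Mrpl39, chr16:84735245-84735384, minus strand: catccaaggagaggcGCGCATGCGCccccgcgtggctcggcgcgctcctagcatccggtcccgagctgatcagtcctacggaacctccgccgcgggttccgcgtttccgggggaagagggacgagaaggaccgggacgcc
Mrpl49, chr19:6057756-6057924, minus strand: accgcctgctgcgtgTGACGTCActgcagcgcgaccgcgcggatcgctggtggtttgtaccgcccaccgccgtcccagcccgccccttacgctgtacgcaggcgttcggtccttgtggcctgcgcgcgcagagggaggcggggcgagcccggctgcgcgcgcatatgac
Mrpl16, chr19:11770305-11770414, plus strand: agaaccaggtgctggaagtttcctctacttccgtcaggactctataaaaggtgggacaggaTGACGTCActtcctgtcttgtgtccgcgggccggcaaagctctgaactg
Mrpl2, chr17:46646075-46646220, plus strand: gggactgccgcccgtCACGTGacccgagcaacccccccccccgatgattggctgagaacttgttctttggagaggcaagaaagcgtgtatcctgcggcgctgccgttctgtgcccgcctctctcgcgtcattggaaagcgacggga
Motifs were searched on both strands. The NRF1 motif, whose letters are the capitals of the first 3 sequences, was in 4% of the 75 member windows and in 0.971% of all 32851 windows. It was in 1.87% of the 12518 windows of tested protein-coding genes. CCGGAAG, an ETS motif that GABPA binds, was in 34.7% of member windows, 8.86% of all windows and 16.3% of those of tested coding genes. AAGATGGC, the YY1 motif, stood at 16%, 2.75% and 4.15% in the same order. The full CRE was in 2.67% of member windows against 1.79% of all and 2.77% of tested coding windows. Its short form TGACG, which lies within the full CRE, was in 41.3%, 20.8% and 29.8%, and the SP1 motif GGGCGG in 52.0%, 35.7% and 62.0%. CACGTG was in 9.33%, 7.15% and 9.84%, and CAAGGTCA, the motif of the estrogen-related receptors, in 2.67%, 1.56% and 1.05%. The E-box of *Mrpl2* is a single site seen from 3 starts. CACGTG was also in windows of *Mrpl20*, *Mrpl36*, *Mrpl37* and *Mrps18c*. After MMPP these had log2 differences from ADPKD of 0.12, 0.52, 0.45 and 0.17, and none was called. A match describes the letters in these windows and not binding.

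In WT cells the members spanned a modest range of levels. Their median was 6.06 and 5.87 FPKM in the 2 libraries, and their FPKM summed to 726 and 698, which was 0.273% and 0.262% of the total. The highest was *Mrps21*, a small protein of the small subunit with a bacterial counterpart, at 38.5 and 34.1 FPKM. *Mrpl34*, a very short protein of the large subunit, followed at 32.7 and 31.0 FPKM.
*Mrpl52*, which bacteria lack, stood at 29.8 and 30.8 FPKM. *Mrpl12*, the stalk protein that contacts translation factors, had 27.8 and 23.2 FPKM, and *Mrpl2*, next to the peptidyl transferase centre, had 23.9 and 21.1. Of the neighbours in this order only *Mrpl12* and *Mrpl2* had overlapping libraries. At the low end *Mrpl47*, near the tunnel exit, had 0.940 and 1.33 FPKM, *Mrps22* had 1.40 and 1.31, and *Mrpl15* had 1.47 and 1.54. *Mrpl19* had 1.43 and 1.90 FPKM and *Mrps10* had 1.6 and 1.8. All 5 low members overlapped with at least 1 other of them.

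**Figure D1:**
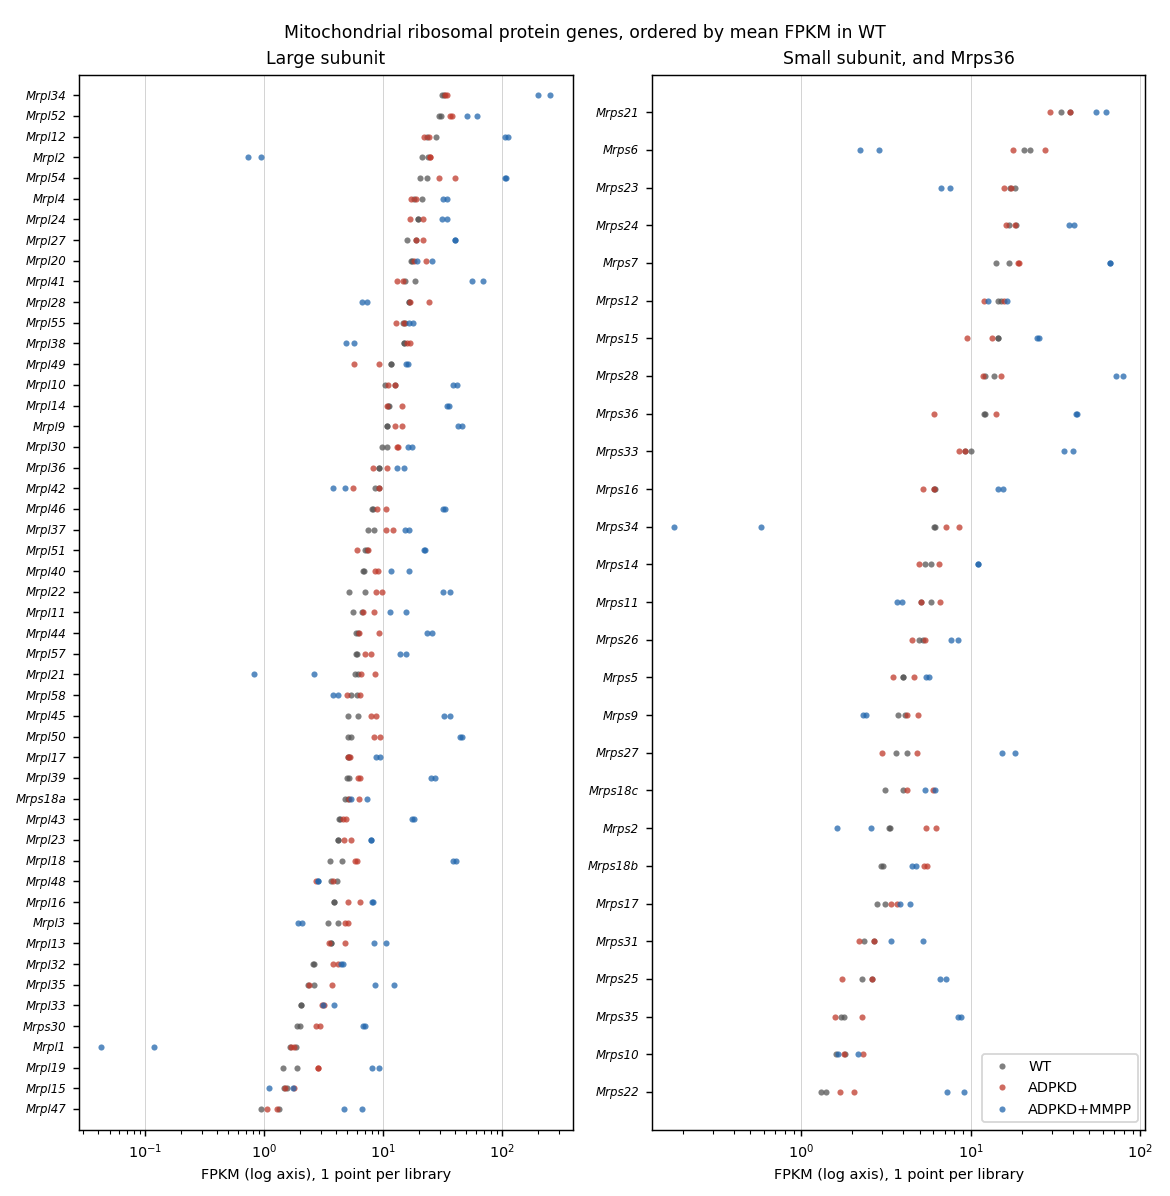
FPKM of the 77 members above the filter in each of the 6 libraries on a log axis, 1 point per library, with the large subunit on the left and the small subunit with *Mrps36* on the right, ordered by mean FPKM in WT. The WT and ADPKD points of a member mostly lie close together, from *Mrps21* at 38.5 and 34.1 FPKM in WT down to *Mrpl47* at 0.940 and 1.33, and the ADPKD+MMPP points lie to the right for most members and far to the left for *Mrpl2*, *Mrpl1* and *Mrps34*.

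Few genes of the mitochondrial ribosome were called different between ADPKD and WT. Of 77 tested members 4 were higher in ADPKD, namely *Mrps18b*, *Mrps2*, *Mrpl50* and *Mrpl54*. *Mrpl49* was lower, and 72 were not called. That is 5.19% of the members called higher and 1.30% called lower, where 14.2% and 12.5% of all tested genes were called in these directions. With an adjusted p under 0.05 beside the fold, 4 members were higher and 0 lower, against 11.9% and 10.6% of all tested genes. With the adjusted p alone 7 were higher and 0 lower, against 14.1% and 12.5%. The count of higher members was 7 with a pseudocount of 0.1, where 16.3% of all genes were higher, and 2 when centred by transcript number, where 13.4% were.

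*Mrps18b*, 1 of 3 mouse paralogs of the bacterial S18 protein, was at 3.04 and 2.95 FPKM in WT and at 5.51 and 5.29 in ADPKD. The groups did not overlap, and the log2 difference was 0.68 ± 0.11 (SE, adjusted p = 0.0106). Exons of an antisense-strand gene, *Gm16279*, overlap 30.5% of its exon bases, and whether counting used the strand is not given in the sources used here. *Mrps2*, a small subunit protein with a bacterial counterpart, was at 3.32 and 3.3 FPKM in WT and 5.46 and 6.19 in ADPKD, a log2 difference of 0.66 ± 0.18 (SE, adjusted p = 0.0428). *Mrpl50*, a protein of the large subunit that bacteria lack, was at 5.07 and 5.38 FPKM in WT and 8.31 and 9.44 in ADPKD. Its log2 difference was 0.66 ± 0.12 (SE, adjusted p = 0.0147), and both ADPKD libraries lay above both WT libraries. *Mrpl54*, also absent from bacteria, rose from 20.3 and 23.3 FPKM to 39.9 and 29.7, with a log2 difference of 0.64 ± 0.17 (SE, adjusted p = 0.0438).

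*Mrpl49* went the other way. It was at 11.6 FPKM in both WT libraries and at 9.14 and 5.70 in ADPKD, a log2 difference of -0.61 ± 0.21 (SE). Its adjusted p was 0.0824 with limma, so this call held only on the unadjusted P. Both ADPKD libraries lay below WT but far apart from each other. *Mrpl49* is also 1 of the 2 members with the full CRE shown above. *Mrpl16*, the other one and a neighbour of the peptidyl transferase centre, was at 3.87 and 3.84 FPKM in WT and 6.37 and 5.11 in ADPKD, which missed the call (log2 difference 0.47, adjusted p = 0.0534).

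Across the 77 tested members the median log2 difference was 0.14, against 0.03 over all tested genes, and single members ran from -0.61 to 0.68. In 54 of them the estimate was above 0. Both ADPKD libraries lay above both WT libraries in 39 members, or 50.6%, against 35.5% of all tested genes. Both lay below in 4 members, or 5.19%, against 31.5% of all tested genes. This leaning upward sat mostly in the large subunit, where 31 of 50 members did not overlap upward and the median was 0.21. In the small subunit 8 of 26 did so, with a median of 0.03, and the difference between the subunits was not tested. Most of these shifts were small. *Mrpl22*, beside the tunnel exit, was at 7.0 and 5.17 FPKM in WT and 9.71 and 8.71 in ADPKD (log2 difference 0.54, adjusted p = 0.0690). *Mrpl19* was at 1.43 and 1.90 FPKM in WT and 2.82 and 2.86 in ADPKD, a log2 difference of 0.53 whose adjusted p was 0.0416 but whose fold missed 1.5.

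Below *Mrpl49*, the lowest estimates belonged mostly to members whose ADPKD libraries lay apart. *Mrps36* was at 12.1 and 12 FPKM in WT and at 14 and 6.05 in ADPKD, on either side of WT (log2 difference -0.34, adjusted p = 0.5). *Mrps15* was at 14.4 and 14.6 FPKM in WT and 13.3 and 9.54 in ADPKD (-0.33, adjusted p = 0.201). *Mrpl42* was at 9.26 and 8.52 FPKM in WT and 9.25 and 5.54 in ADPKD (-0.27, adjusted p = 0.431), and *Mrpl41* was at 18.5 and 15.2 in WT and 14.6 and 13.1 in ADPKD (-0.26, adjusted p = 0.283). ADPKD replicate 1 exceeded ADPKD replicate 2 in 60 members and lay below it in 17, a split of 41 to 36 in each of the other groups. Without ADPKD replicate 1 the median log2 difference was 0.05, with 3 members higher and 3 lower. Without ADPKD replicate 2 it was 0.20, with 5 members higher and 0 lower.

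**Figure D2:**
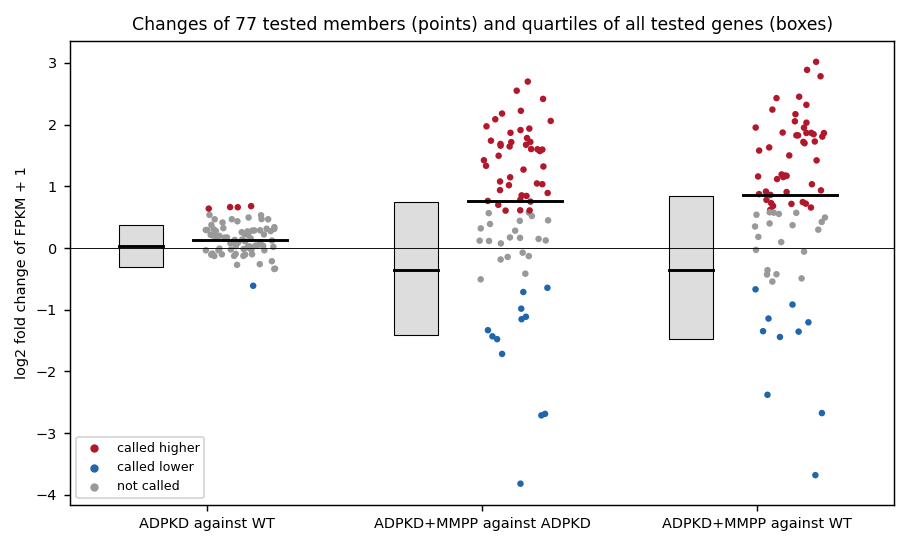
Log2 fold change of FPKM + 1 for the 77 tested members in the 3 comparisons, 1 point per member, coloured by call, with a line at their median. The grey boxes span the quartiles of all 14862 tested genes with a line at the median, so that the members' medians of 0.14, 0.76 and 0.86 can be set against 0.03, -0.36 and -0.36.

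After MMPP most genes of the mitochondrial ribosome were higher than in untreated ADPKD cells. Of 77 tested members 44 were higher, 12 were lower and 21 were not called. These are 57.1% and 15.6% of the members, against 27.9% higher and 43% lower among all tested genes. The median log2 difference was 0.76 for members and -0.36 over all tested genes, and members ran from -3.82 for *Mrpl2* to 2.70 for *Mrpl34*. The members' median stood above that of all tested genes by 1.12 with FPKM as deposited, 1.17 with TMM factors, 0.93 after quantile normalization and 1.04 with equal sums. Under those scalings the median of all genes was -0.22, 0.10 and -0.55. All adjusted p-values in the next paragraphs come from limma.

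Among the strongest rises, *Mrpl34* went from 34.7 and 33.1 FPKM in ADPKD to 200.4 and 253.4 in ADPKD+MMPP (log2 difference 2.70 ± 0.15, SE; adjusted p = 4.69e-05). *Mrpl18*, the counterpart of the bacterial protein that binds 5S rRNA in the central protuberance, went from 6.03 and 5.82 FPKM to 38.5 and 40.6 (2.55 ± 0.14, adjusted p = 4.18e-05). *Mrps28* went from 15 and 11.8 FPKM to 79.0 and 71.9 (2.42 ± 0.16, adjusted p = 7.44e-05). In each of them both treated libraries stood far above both ADPKD libraries.
*Mrpl50*, already higher in ADPKD than in WT, went on from 8.31 and 9.44 FPKM to 46.1 and 44.05 (2.22 ± 0.12, adjusted p = 4.54e-05). *Mrpl54* likewise went from 39.9 and 29.7 FPKM to 105.9 and 107.5 (1.6 ± 0.17, adjusted p = 0.000401). *Mrpl49*, lower in ADPKD, was higher after MMPP at 16.3 and 15.5 FPKM (1.03 ± 0.21, adjusted p = 0.00510). Those 3 members thus ended above their WT values in both treated libraries.

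The 12 lower members included some that had been among the most abundant. *Mrpl2*, a core protein beside the peptidyl transferase centre, fell from 25 and 24.6 FPKM to 0.724 and 0.940 (log2 difference -3.82 ± 0.13, SE; adjusted p = 2.21e-05). Its values rest on 10 and 12 reads in the treated libraries, against 967 and 923 in ADPKD. Odd read numbers were rare in treated libraries, as given above. Read numbers there may thus not be independent draws, for *Mrpl2* and for the other low members. *Mrps6*, a small subunit protein with a bacterial counterpart, fell from 17.8 and 27.3 FPKM to 2.87 and 2.21 (-2.71 ± 0.22, adjusted p = 0.000155). It shares 19.9% of its exon bases with *Slc5a3* and *Gm49711* on the same strand.
*Mrps34* fell from 7.10 and 8.49 FPKM to 0.574 and 0.178, which is 14 and 4 reads (-2.69 ± 0.18, adjusted p = 7.62e-05). Exons of *Mapk8ip3* and *Nme3* overlap 77.8% of its exon bases, so its reads are uncertain. *Mrpl21* fell from 8.51 and 6.45 FPKM to 2.61 and 0.820 (-1.71 ± 0.33, adjusted p = 0.00425), with treated libraries that lay far apart. *Mrpl38*, in the central protuberance, fell from 15.9 and 16.9 FPKM to 4.85 and 5.68 (-1.48 ± 0.12, adjusted p = 0.000167). *Mrpl1* had 1.67 and 1.76 FPKM in ADPKD and 0.118 and 0.0427 in ADPKD+MMPP, and its 6 and 2 reads there give no firm fold. *Mrps2*, higher in ADPKD, fell to 1.62 and 2.57 FPKM (-1.15 ± 0.18, adjusted p = 0.00167), but its log2 difference was 0.57 once genes were centred by exon share, an adjustment described below. The other lower members were *Mrpl3*, *Mrpl28*, *Mrpl42*, *Mrps9* and *Mrps23*, of which *Mrpl42* fell from 9.25 and 5.54 FPKM to 4.74 and 3.78 (-0.64 ± 0.24, adjusted p = 0.0475).

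By position in the ribosome, both directions occurred around the catalytic centre. The counts by position stand beside 57.1% higher and 15.6% lower among all tested members. Among all tested genes the shares were 27.9% and 43%, and differences between positions were not tested. Of 5 members near the peptidyl transferase centre, *Mrpl4* and *Mrpl27* were higher and *Mrpl2* and *Mrpl3* lower. Of 6 members assigned to the central protuberance, the knob that faces the small subunit, *Mrpl18*, *Mrpl40*, *Mrpl46* and *Mrps30* were higher and *Mrpl38* was lower. Positions were assigned to only a part of the members, and *Mrpl58* had none. All 3 members of the stalk, which recruits translation factors, were higher. *Mrpl10*, the stalk's base, went from 12.6 and 11.0 FPKM to 41.6 and 38.7 (1.69 ± 0.15, adjusted p = 0.000184). *Mrpl12* went from 24.3 and 22.2 FPKM to 105.0 and 112.5 (2.18 ± 0.14, adjusted p = 6.84e-05), and *Mrpl11* from 8.31 and 6.76 to 11.5 and 15.7 (0.76 ± 0.19, adjusted p = 0.0124). Around the tunnel exit *Mrpl17*, *Mrpl22*, *Mrpl24*, *Mrpl45* and *Mrpl47*, 5 of 6 members, were higher and none was lower. There *Mrpl45*, which holds the ribosome at the inner membrane, went from 8.68 and 7.87 FPKM to 32.6 and 36.4 (1.94 ± 0.14, adjusted p = 0.000109).

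Other members with known special roles moved unequally. *Mrpl44*, a protein with a ribonuclease III-like fold, went from 9.21 and 6.22 FPKM to 23.2 and 25.9 (1.57 ± 0.19, adjusted p = 0.000625). *Mrpl32*, whose cleavage by a protease of the inner membrane is a step of assembly, was at 4.17 and 3.8 FPKM and then 4.59 and 4.45 (0.15 ± 0.11, adjusted p = 0.271). Its relatives in the list of NRF1 motifs above differed from it, since *Mrpl9* went from 12.6 and 14.4 FPKM to 45.8 and 43.0 and *Mrpl39* from 6.11 and 6.44 to 25.3 and 27.5. *Mrps12*, the decoding site protein whose bacterial counterpart is known from streptomycin resistance, was at 15.7 and 11.9 FPKM and then 16.5 and 12.7 (0.08 ± 0.19, adjusted p = 0.725).
*Mrpl58*, a peptidyl-tRNA hydrolase that frees stalled ribosomes, was at 6.39 and 4.96 FPKM and then 4.19 and 3.77 (-0.42 ± 0.15, adjusted p = 0.0461, fold under 1.5), and its estimate was 1.52 when centred by exon share. *Mrps36* was at 14 and 6.05 FPKM and then 42.3 and 41.6 (2.06 ± 0.34, adjusted p = 0.00232).

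The S18 paralogs take separate places in the mitochondrial ribosome. *Mrps18a*, in the large subunit, was at 4.76 and 5.07 FPKM in WT, 6.28 and 5.19 in ADPKD and 7.30 and 5.37 in ADPKD+MMPP. *Mrps18c* was at 3.10 and 3.96 FPKM in WT, 5.99 and 4.17 in ADPKD and 6.14 and 5.37 in ADPKD+MMPP. Neither was called in any of the 3 comparisons, and for both the ADPKD and ADPKD+MMPP libraries overlapped. *Mrps18b*, the paralog called higher in ADPKD, was at 4.74 and 4.52 FPKM after MMPP. Its log2 difference from ADPKD was -0.18 ± 0.11 (SE, adjusted p = 0.174), and it was 0.70 when centred by exon share.

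The sums of both subunits were highest in treated cells. The FPKM of the large subunit genes summed to 487 and 468 in WT, 574 and 510 in ADPKD, and 1286 and 1349 in ADPKD+MMPP. For the small subunit the sums were 227 and 219, 240 and 219, and 451 and 421. All FPKM together also summed higher in treated cells, at 350159 and 351015, against 266194 and 266726 in WT and 284459 and 281586 in ADPKD. As shares of these totals the large subunit made up 0.183% and 0.175% in WT, 0.202% and 0.181% in ADPKD and 0.367% and 0.384% in ADPKD+MMPP. The shares of the small subunit were 0.0854% and 0.0820%, 0.0845% and 0.0777%, and 0.129% and 0.120%. The ratio of large to small was 2.14 in both WT libraries, 2.39 and 2.33 in ADPKD, and 2.85 and 3.21 in ADPKD+MMPP. The groups did not overlap in this ratio, but an exact permutation test of 2 against 2 libraries cannot go below p = 0.333, and *Mrpl34* alone gave 200.4 and 253.4 of the large subunit sum after MMPP.

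**Figure D3:**
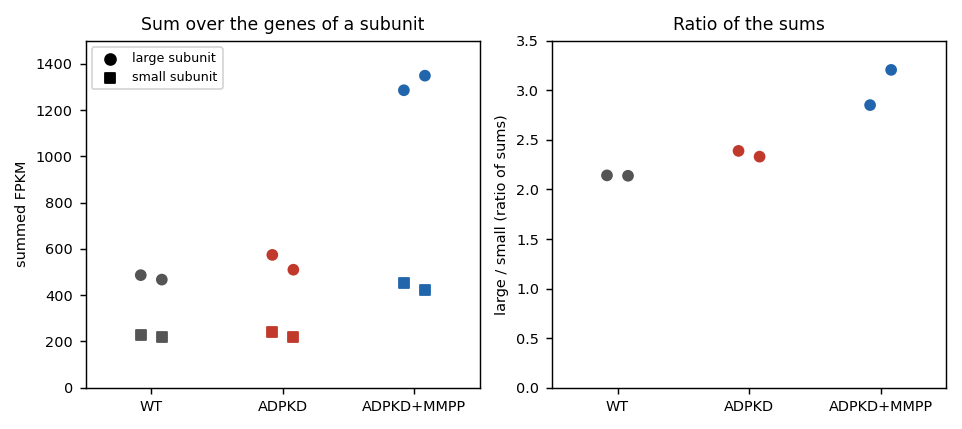
Left, FPKM summed over large subunit genes (circles) and small subunit genes (squares) in each library. Right, the ratio of these sums, which was 2.14 in both WT libraries, 2.39 and 2.33 in ADPKD and 2.85 and 3.21 in ADPKD+MMPP.

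The changes after MMPP varied with the structure of the genes. Members with few annotated transcripts were highest, with a median log2 difference of 2.42 for the 3 members with 1 transcript, 1.66 for 17 with 2 and 1.32 for 17 with 3. The median was 0.76 for 17 members with 4 or 5 transcripts, 0.12 for 15 with 6 or 7 and -0.11 for 8 with 8 or more. Spearman's rho with the number of transcripts was -0.609 over the 77 members, which share their libraries and are not independent. The same order held among 12375 tested protein-coding genes, with rho of -0.506 and class medians of 1.10, 0.65, 0.36, -0.18, -0.73 and -1.21. In each of the 6 classes the members' median lay above that of protein-coding genes, by 0.86 to 1.32. In ADPKD against WT rho was -0.0481 for members and -0.0570 for protein-coding genes. When every library was centred within 20 bins of the share of exon bases that lie in exactly 1 transcript, 40 members were higher and 8 lower after MMPP, with a median of 0.70 against 0.15 for protein-coding genes. In that setting 33.7% of genes were called higher and 24.5% lower. How much of the change of any member, or of any gene in the lists below, belongs to this dependence and how much to the treatment cannot be told apart.

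**Figure D4:**
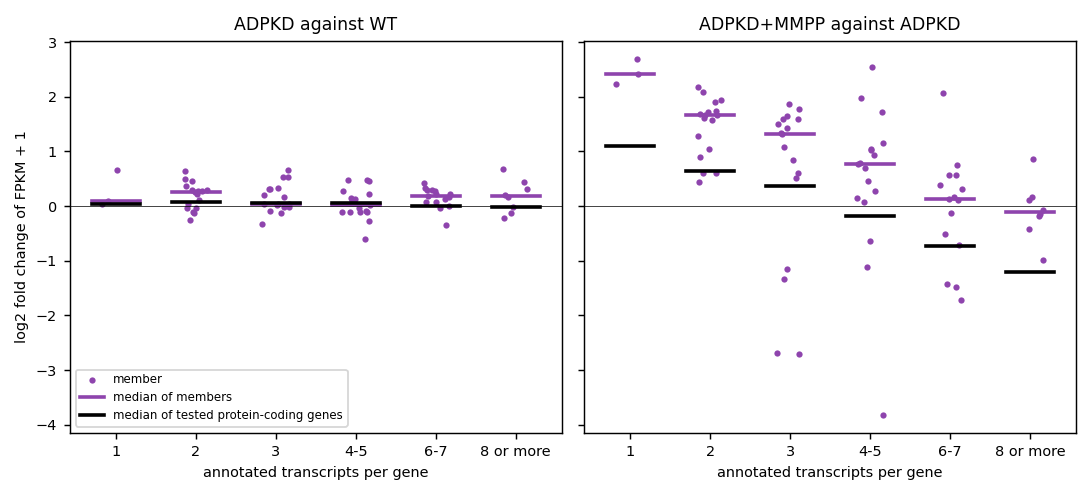
Log2 fold change of FPKM + 1 against the number of annotated transcripts of the gene, for ADPKD against WT (left) and ADPKD+MMPP against ADPKD (right), 1 purple point per member with purple lines at class medians and black lines at medians of tested protein-coding genes. On the right both lines descend, from 2.42 and 1.10 at 1 transcript to -0.11 and -1.21 at 8 or more, and on the left they stay near 0.

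Set against WT, treated cells had 47 members higher and 10 lower, or 61% and 13%, with 30.1% and 43.8% among all tested genes. The median log2 difference was 0.86 against -0.36. This comparison shares its treated libraries with the one above. *Mrpl18* led at 3.02 ± 0.14 (SE, adjusted p = 2.36e-05), from 3.58 and 4.48 FPKM in WT. *Mrpl50* followed at 2.89 ± 0.12 and *Mrpl34* at 2.78 ± 0.15. *Mrps28* stood at 2.45 ± 0.16 and *Mrpl45* at 2.43 ± 0.14. At the other end were *Mrpl2* at -3.68 ± 0.13, *Mrps6* at -2.67 ± 0.22, *Mrps34* at -2.38 ± 0.18, *Mrpl21* at -1.44 ± 0.33 and *Mrpl38* at -1.35 ± 0.12. The most abundant WT member, *Mrps21*, rose to 63.0 and 54.8 FPKM (0.68 ± 0.17, adjusted p = 0.0127), and *Mrpl52* to 61.6 and 50.6 (0.86 ± 0.14, adjusted p = 0.00184). Among the 5 least abundant WT members, *Mrps22* rose to 9.13 and 7.21 FPKM, *Mrpl19* to 9.25 and 8.12 and *Mrpl47* to 6.59 and 4.71. *Mrps10* at 1.64 and 2.16 and *Mrpl15* at 1.76 and 1.10 were not called, and the estimate for *Mrpl15* turned from -0.06 to 0.60 when centred by exon share.

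Genes that build and feed the mitochondrial ribosome were counted in lists, without the centring described above. The dependence on gene structure after MMPP was thus not removed from their values. Their counts in ADPKD against WT stand beside 14.2% higher and 12.5% lower among all tested genes. Of 5 tested ribosomal proteins with other names none was called, and of 24 assembly and rRNA processing factors 1 was higher, the helicase *Ddx28*. Of 19 genes in the list of translation factors, which also holds enzymes that modify tRNA, 2 were lower, *2810006K23Rik* and *Mto1*. The latter, which modifies mitochondrial tRNAs, was at 4.97 and 5.94 FPKM in WT and 2.97 and 2.25 in ADPKD. Of 19 genes in the list of mitochondrial tRNA synthetases 1 was lower, namely *Nars2*. Genes that copy and transcribe mitochondrial DNA had 1 of 12 higher, *Tefm*, and 4 lower, namely *Mgme1*, *Mterf2*, *Polg2* and *Top1mt*, or 8.33% and 33.3%. There *Top1mt*, the mitochondrial topoisomerase, went from 24.8 and 35.1 FPKM to 7.50 and 2.29, and *Polg2*, a subunit of the mitochondrial DNA polymerase, from 7.97 and 8.61 to 2.97 and 2.99. Of 17 assembly factors of oxidative phosphorylation 1 was higher, *Sco1*, and of 11 regulators of mitochondrial biogenesis 1 was higher, *Myc*. In the cytosolic ribosome 25 of 78 genes were higher and 0 lower, with a median log2 difference of 0.50.

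After MMPP, where 27.9% of all tested genes were higher and 43% lower, 12 of 24 assembly factors were higher and 5 lower, namely *Dhx30*, *Eral1*, *Mettl15*, *Mettl17* and *Trub2*. *Mrm2*, which methylates mitochondrial rRNA, went from 1.82 and 1.15 FPKM to 7.98 and 9.84, while *Dhx30*, an RNA helicase of assembly, went from 5.37 and 4.84 to 0.734 and 0.786. Of 19 genes in the translation factor list 7 were higher and *Gtpbp3*, *Guf1* and *Mtif2* lower. *Taco1*, an activator of cytochrome oxidase translation, went from 2.49 and 1.08 FPKM to 14.2 and 13.7. *Mtif2*, the initiation factor, fell from 4.28 and 2.39 FPKM to 0.263 and 0.142, and *Tufm*, the elongation factor, was at 26.5 and 20.3 and then 15.9 and 14.6, short of the fold. Of the 5 proteins with other names, *Chchd1* rose from 24.1 and 19.1 FPKM to 59.3 and 59.9 and *Dap3* fell from 7.04 and 7.09 to 4.12 and 3.79, with *Gadd45gip1* also higher and *Ptcd3* also lower. Of 19 genes in the tRNA synthetase list *Gatc*, *Mars2* and *Sars2* were higher and 7 were lower, although the list's median log2 difference was 0.11. *Gatc* is a subunit of an amidotransferase and not a synthetase.

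Of 11 tested regulators of mitochondrial biogenesis 7 were lower after MMPP and 2 higher, or 63.6% and 18.2%, beside 43% and 27.9% of all tested genes. *Myc*, which drives growth and ribosome genes, was at 29.9 and 35.8 FPKM in WT, 75.5 and 91.5 in ADPKD and 0.873 and 1.35 in ADPKD+MMPP. *Nrf1*, whose motif is shown above, went from 2.48 and 3.24 FPKM in ADPKD to 0.642 and 0.767. *Yy1* went from 20.2 and 21.5 FPKM to 45.4 and 48.9, and *Ppargc1a*, the coactivator of mitochondrial biogenesis, from 7.78 and 6.13 to 10.9 and 11.8. *Gabpa* was at 9.18 and 9.77 FPKM and then 10.7 and 9.61, which was not called. Of 12 genes for mitochondrial DNA *Tfam*, *Tfb2m* and *Twnk* were higher and *Polg*, *Polg2*, *Polrmt* and *Rnaseh1* lower. *Tfam*, which packs mitochondrial DNA, rose from 5.03 and 5.60 FPKM to 14.1 and 10.9, and *Polrmt*, the mitochondrial RNA polymerase, fell from 3.90 and 3.32 to 0.578 and 0.509. Of 17 oxidative phosphorylation assembly factors 8 were higher and *Atpaf2*, *Ecsit* and *Ndufaf1* lower. *Tmem126b*, needed for complex I assembly, went from 2.02 and 1.09 FPKM to 13.4 and 15.5. Genes of the cytosolic ribosome had 12 of 78 higher and 37 lower, with a median of -0.54.

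**Figure D5:**
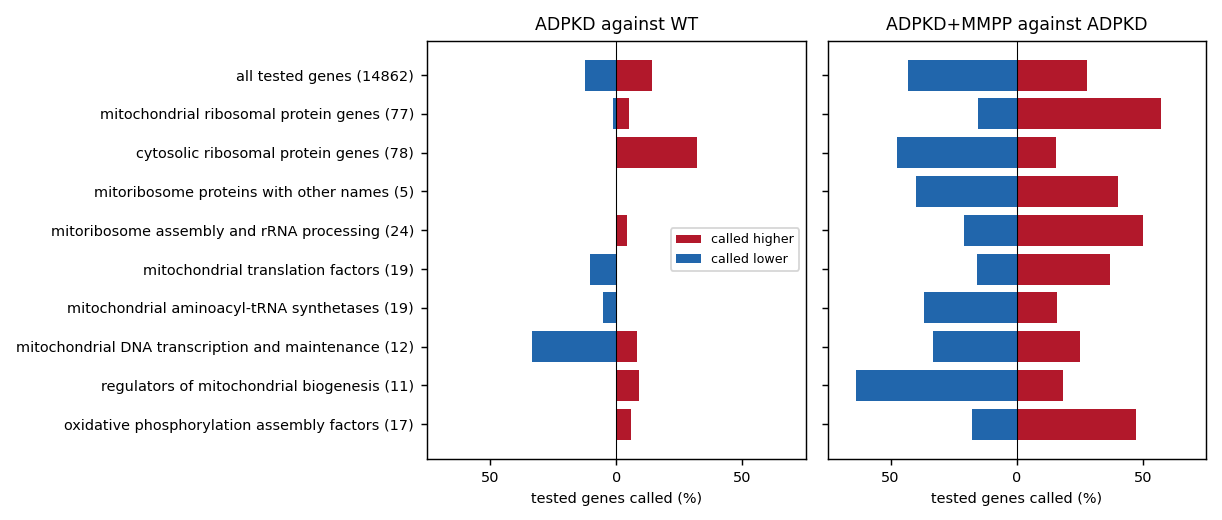
Share of tested genes called higher (red, right of 0) and lower (blue, left of 0) in ADPKD against WT and in ADPKD+MMPP against ADPKD, for all tested genes, the members and 8 related lists, with the number tested in parentheses. On the left the members show 5.19% higher and the cytosolic ribosome 25 of 78 genes, and on the right the members show 57.1% higher and 15.6% lower.

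Markers of other kidney cells moved with the groups. Their counts stand beside 14.2% higher and 12.5% lower among all tested genes in ADPKD against WT. After MMPP those shares were 27.9% and 43%. The 14 proximal tubule markers, genes of a segment especially rich in mitochondria, summed to 787 and 574 FPKM in WT, 1966 and 1422 in ADPKD and 22970 and 21800 in ADPKD+MMPP. Of them 4 were higher and 1 lower in ADPKD than in WT, and 11 were higher and 0 lower after MMPP. The highest single proximal tubule marker stood at 378 and 396 FPKM in WT, 1274 and 1300 in ADPKD and 12820 and 12120 in ADPKD+MMPP. The median proximal tubule marker was at 8.53 and 3.91, 10.1 and 3.27, and 93.0 and 90.5 FPKM in the same order. No proximal tubule marker was at 0 in any library. The 10 markers of intercalated cells, which are also rich in mitochondria, were all lower in ADPKD than in WT and 8 were higher after MMPP, with sums of 362 and 376.5, 96.6 and 37.0, and 269 and 279 FPKM. Markers of collecting duct principal cells, the cells DBA labels, summed to 2138 and 2827 FPKM in WT, 2533 and 964 in ADPKD and 5452 and 5473 in ADPKD+MMPP, with 1 of the 10 at 0 in 1 ADPKD library and none at 0 in the other libraries. That sum rests largely on a single gene, which reached 3555 and 3499 FPKM in treated cells. The median principal cell marker was at 60.7 and 73.1 FPKM in WT, 93.2 and 31.6 in ADPKD and 44.8 and 40.6 in ADPKD+MMPP, and of 9 tested markers 4 were higher and 2 lower after MMPP. Of 8 tested leukocyte markers 7 were higher and 1 lower in ADPKD, while after MMPP 4 were higher and 3 lower. Their sums were 241.5 and 188, 1127 and 778, and 1243 and 1282 FPKM, with medians of 7.63 and 8.69, 45.4 and 52.5, and 22.8 and 27.3. Podocyte markers were all 6 lower in ADPKD than in WT, and of 7 tested endothelial markers 6 were lower and 1 higher. After MMPP 3 of the 6 podocyte and 4 of the 7 endothelial markers were lower than in ADPKD, and 0 were higher. Of the 7 fibroblast and pericyte markers 6 were higher and 1 lower in ADPKD, and after MMPP 2 were higher and 3 lower. The 8 markers of the thick ascending limb and distal tubule had 1 higher and 4 lower in ADPKD. After MMPP 4 of these 8 were higher and 2 lower. The part of these cell types in the members' values was not tested.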

How the data were processed

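The authors aligned the reads of polyA RNA to GRCm38 with HISAT2 2.1.0, counted them on genes with featureCounts 1.6.0 and tested counts with DESeq2. The authors deposited FPKM, fragments scaled by gene length and library size, for 55367 symbols in each of 6 libraries. The annotation release, the strand setting and the way FPKM was made are not given in the sources used here. A count model was not fitted, since FPKM are not counts.

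Members were matched by symbol pattern, and 6 pseudogene rows were left out. The filter kept genes that reached an FPKM of 1 in 2 or more libraries. R 4.3.3 and limma 3.58.1 fitted log2(FPKM + 1), a pseudocount of 1, to all 6 libraries together. Positions, transcripts and exon overlaps came from GENCODE vM21, which matched 53186 of 55367 symbols. Depth was taken from FPKM times exon length, where 98.3% to 99.0% of low values came out as whole reads within 0.05. Values resting on 3 reads or fewer were taken as the floor, for counting error only. Replicate differences were set against sampling noise by a chi-square per member. It averaged 3.19 for WT, 17.2 for ADPKD and 5.17 for ADPKD+MMPP, with medians of 1.09, 6.51 and 2.04. This takes every read as an independent draw. The shares of odd read numbers given above put that in doubt, so the size of any excess over sampling noise was not settled. Nothing says that the 2 libraries of a group came from separate animals, so p-values measure only the spread between these libraries. The limma step and the centring step were tested on simulated data, and the other steps were not.

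The members, lists and tests were chosen with earlier results of these data known. Members named are the 5 highest and 5 lowest changes of each comparison, the 5 highest and 5 lowest levels in WT, and a fixed list of members with known roles. *Mrpl1*, *Mrpl3*, *Mrpl4*, *Mrpl9*, *Mrpl16*, *Mrpl20*, *Mrpl27*, *Mrpl28*, *Mrpl36*, *Mrpl37*, *Mrpl39*, *Mrpl40*, *Mrpl46*, *Mrpl17*, *Mrpl24*, *Mrps30*, *Mrpl53*, *Mrps9* and *Mrps23* fall outside this rule and were named for their motifs, counts or position after their values were seen. Alternatives covered the pseudocount, filter, scaling, variance trend, call rule, replicate block, gene structure and each replicate left out.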

Additional observations from a re-analysis of the deposited data

How the results depend on the processing

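The members' excess over all genes after MMPP kept its direction under every alternative run, and counts in ADPKD against WT were small enough to move with several choices. A replicate block, a variance trend or a WT library left out cannot change that excess against ADPKD, so they are no check of it. In ADPKD against WT the main counts were 4 higher and 1 lower. There were 7 higher with a pseudocount of 0.1 or with an adjusted p under 0.05 at any fold, and 2 when centred by transcript number, an alternative chosen after seeing the data. There were 0 lower with an adjusted p under 0.05, with or without the fold, and among 45 members whose exons overlap no other gene, also chosen after seeing the data. With a replicate left out, its group has 1 library, which is assumed to vary like the other groups. Leaving out each replicate gave 3 to 5 higher, 0 to 3 lower and a median of 0.05 to 0.20, with 3 lower only without ADPKD replicate 1 and 0 lower without any of the other 5 libraries. *Mrpl49* thus lost its call in 5 of these 6 fits. *Mrpl50* lost its call without ADPKD replicate 2 at 0.58, *Mrpl54* without ADPKD replicate 1 at 0.43 and without WT replicate 1 at 0.55, and *Mrps2* without ADPKD replicate 2 at 0.58 and without WT replicate 2 at 0.66. Of these, *Mrpl54* also missed the fold with equal sums at 0.56.

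In ADPKD+MMPP against ADPKD the members' median was 0.95 with TMM, 1.03 with quantile normalization, 0.48 with equal sums, 1.10 centred by transcript number and 0.61 in members without exon overlap, of which 23 of 45 were higher. Leaving out each replicate gave 43 to 46 higher, 11 to 13 lower and medians of 0.64 to 0.91. *Mrpl42* lost its call without any library except ADPKD replicate 2, and *Mrpl11* lost it without ADPKD+MMPP replicate 2 at 0.56. Quantile normalization moved the calls of all genes to 36.1% higher and 30.8% lower, from 27.9% and 43%. Against WT 6 members were lower, not 10, when centred by exon share or transcript number. There were also 6 lower with FPKM of at least 1 in all libraries, a filter that removes the other 4 because they fell below 1 in treated cells and so is no check of them, and 6 lower and 28 higher among the 45 members without exon overlap. The median against WT was 1.02 with TMM, 1.13 with quantile normalization, 0.48 with equal sums, 0.81 centred by exon share, 1.15 by transcript number and 0.75 without overlap. Leaving out each replicate gave 47 to 50 higher, 9 to 10 lower and medians of 0.78 to 0.89. Single estimates were recomputed only for members named by the rule. Those that changed sign and were called before or after the change did so under centring. Against ADPKD they were *Mrpl15* at 0.73, *Mrpl58* at 0.96, *Mrps10* at 1.30 and *Mrps18b* at 1.19 by transcript number, and *Mrpl58* at 1.52, *Mrps18b* at 0.70 and *Mrps2* at 0.57 by exon share. Against WT they were *Mrpl15* at 0.60, *Mrpl58* at 1.54, *Mrps12* at 1.18 and *Mrps2* at 1.18 by exon share, and *Mrpl15* at 0.81 and *Mrpl58* at 0.99 by transcript number. *Mrps2* against ADPKD turned from a lower call to 0.57 by exon share, where its fold missed 1.5. The cause was not tested.

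The replicate numbers did not pair the libraries, with correlations of deviations of 0.129, -0.00796 and 0.0137 between WT and ADPKD, WT and ADPKD+MMPP, and ADPKD and ADPKD+MMPP. A replicate block left 4 higher and 1 lower in ADPKD against WT, 44 and 12 after MMPP and 47 and 10 against WT. The medians of 0.14, 0.76 and 0.86 could not change, since every group holds both replicate numbers.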
